A study of Drosophila melanogaster with 4 samples.

Results

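The Antennapedia complex was described as the interval 3R 2480000 to 2830000 of FlyBase r5, which holds lab, pb, zen2, zen, bcd, Dfd, Scr, ftz and Antp. All enriched regions of H3K9acS10P that overlapped this interval by at least 1 bp were taken from the 3 deposited lists. They were 45 of 15374 regions of the series-level list, 7 of 4619 regions of ChIP replicate 1 and 19 of 10280 regions of ChIP replicate 2. The embryos were wild-type Drosophila melanogaster of the strain Oregon-R-modENCODE, aged 14 to 16 h, and received no treatment. 2 ChIP samples were made with the antibody Ab12181, lot 838296, against histone H3 acetylated at lysine 9 and phosphorylated at serine 10, and 2 input samples served as their backgrounds. A region list of the inputs was not analysed here. The labels do not state whether the 2 replicates derive from different collections of embryos, and their spread may thus be technical.

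The complex is one of the fly's Hox clusters. lab (labial), pb (proboscipedia), Dfd (Deformed), Scr (Sex combs reduced) and Antp (Antennapedia) encode homeodomain transcription factors that give segments of the head and thorax their identity, and each is active in only some cells along the body axis. Polycomb group proteins keep these genes silent elsewhere, and Trithorax group proteins keep them active. The other members act earlier: bcd (bicoid) is the maternal anterior determinant, zen and zen2 (zerknullt and its duplicate) belong to dorsal patterning of the early embryo, and ftz (fushi tarazu) is a pair-rule gene. Acetylation of lysine 9 is known from active promoters, and phosphorylation of serine 10 from mitotic chromosomes and from the interphase kinase JIL-1.

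The RefSeq gene table of genome Release 6 matched 9 of 9 members by symbol and gave them in the order lab, pb, zen2, zen, bcd, Dfd, Scr, ftz, Antp. It placed 34 other genes among them. These include Edg84A and 7 genes of the Ccp84A group, both cuticle protein genes, between lab and pb, then Ama, which encodes a cell adhesion protein, and the microRNA genes mir-993 and mir-10 on the 2 sides of Dfd. That table and the lists are on different builds. No covered share per gene was therefore computed, and regions are named by their r5 positions. From general knowledge of the locus, lab lies towards the lower coordinates and Antp towards the higher ones.

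H3K9acS10P covered a small share of the complex, in separate narrow regions. The series-level list covered 74.9 kb of the interval, or 21.4%. Replicate 1 covered 15.1 kb, or 4.32%, and replicate 2 covered 40.5 kb, or 11.6%, a mean of 7.95% ± 5.14 (SD, n = 2). Replicate 2 thus covered 2.68 times as many bases as replicate 1, and the ratio over the whole arm was also 2.68. Because whole embryos were used, a mark in fewer cells and a weaker mark per cell cannot be told apart.

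**Figure D1:**
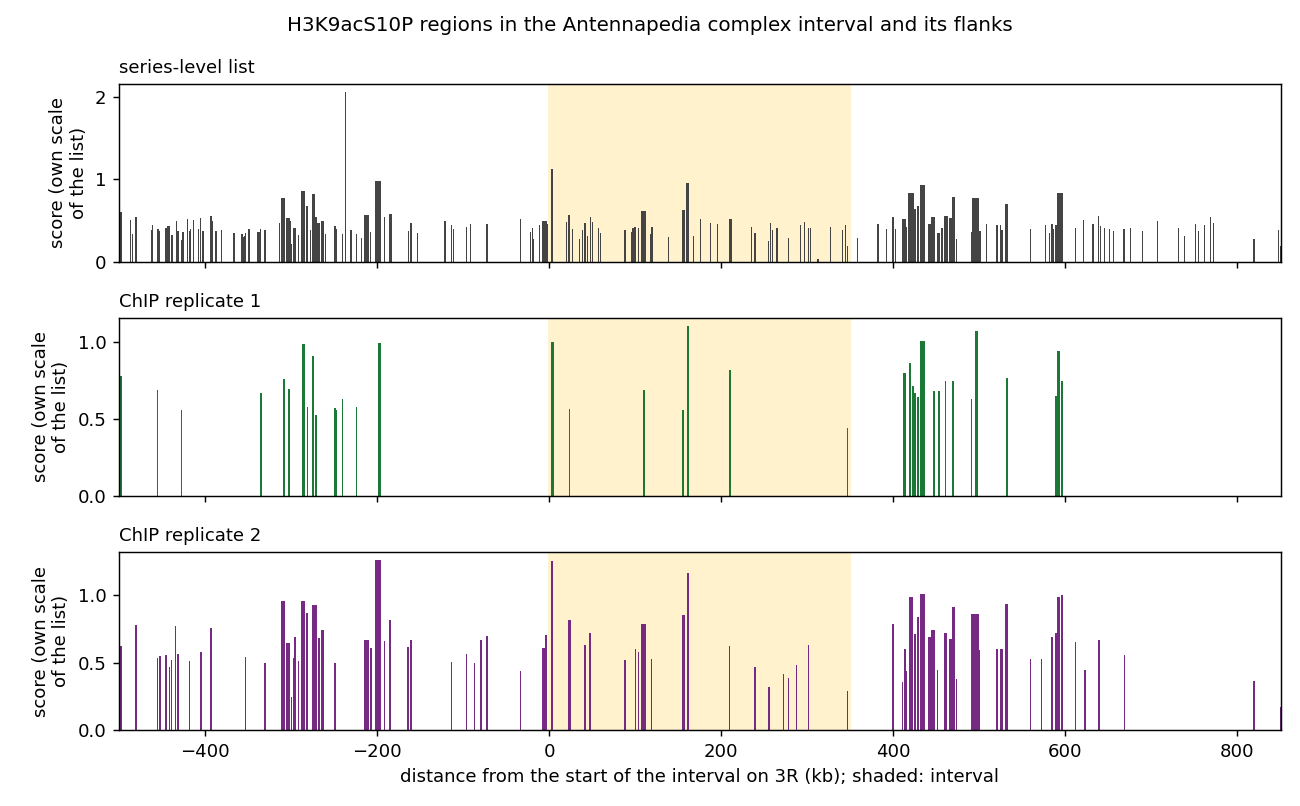
Enriched regions in the interval (shaded) and in the 500 kb on each side. The x axis is the distance from the start of the interval in kb, each bar is 1 region drawn to its width, and its height is the authors' score on the scale of that list. The interval holds 45 regions in the series-level list, and 7 and 19 in replicates 1 and 2, none wider than 6383 bp.

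Within each replicate, the complex was covered to about the same fraction of the arm's average. Arm 3R as a whole was covered to 33.1% in the series-level list, and 9.15% and 24.5% in replicates 1 and 2. The share of the interval divided by that of the arm was 0.471 in replicate 1 and 0.472 in replicate 2, or 0.472 ± 0.000538 (SD, n = 2), and 0.646 in the series-level list. With replicate 2 limited to its 4619 highest-scoring regions, the number in replicate 1, its ratio was 0.406, so the close match of the replicates held for the lists as deposited. The smallest p that an exact two-sided sign test allows with 2 replicates is 0.5, so no test over samples was run, and the comparisons with flanks and windows are descriptions.

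The 500 kb on each side were covered to a higher share than the complex in all 3 lists when each flank was taken whole. The left flank, 1980000 to 2479999, was covered to 31.2% in the series-level list, and 6.16% and 20.0% in replicates 1 and 2. The right flank, 2830001 to 3330000, was covered to 25.1%, 7.71% and 16.9% in the same order. Against both flanks together, the interval was lower by 6.76 percentage points in the series-level list, with 21.4% against 28.1%. Replicate 1 gave a difference of -2.62 percentage points and replicate 2 one of -6.86, a mean of -4.74 ± 3.00 (SD, n = 2).

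In bins of 50 kb the complex lay inside the range of its neighbourhood. The 7 bins of the interval were covered to between 11.4 and 31.3% in the series-level list, and the 20 bins of the flanks to between 7.08 and 67.0%. In replicate 1 the bins of the interval ran from 0 to 9.76% and those of the flanks from 0 to 36.8%. In replicate 2 they ran from 5.03 to 20.1% and from 0 to 60.2%. The interval's range thus fell within that of the flanks in each list, and a difference beyond the spread of bins was not seen. A range of 20 bins tends to contain one of 7 bins, so this comparison cannot tell whether the shares differed. The median bin was lower in the interval than in the flanks in the series-level list, at 20.8 against 26.3%, and in replicate 2, at 11.5 against 14.9%. In replicate 1 the order was the opposite, at 4.11 against 1.40%, with 10 of the 20 flank bins at 0 and 2 of the 7 interval bins at 0.

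In the series-level list, much of the right flank's covered share lay in a few dense bins, while that of the left flank was spread over more bins. The bin 2880000 to 2929999 in the right flank was covered to 67.0% in the series-level list, and 36.8% and 60.2% in replicates 1 and 2. In the left flank the densest bin was 2180000 to 2229999, at 57.0%, 19.6% and 51.0%. The other bins of the left flank ranged from 7.63 to 47.8% in the series-level list. Those that start at 2130000 and 2230000 were covered to 39.5 and 41.1% there. The bins that adjoin the interval were sparser. The bin on its left, 2430000 to 2479999, was covered to 25.4% in the series-level list, and 0 and 14.0% in replicates 1 and 2. The bin on its right, 2830000 to 2879999, was covered to 11.6%, 0 and 2.52%. Near the complex, the direction therefore differed by side. The 100 kb on its left were covered to 17.8% in the series-level list, and 0 and 13.7% in replicates 1 and 2, so the complex, at 21.4%, 4.32% and 11.6%, was higher in the first 2 of these lists and lower in replicate 2. The 100 kb on its right, which hold the densest bin, were covered to 39.3%, 18.4% and 31.3%, above the complex in each list.

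**Figure D2:**
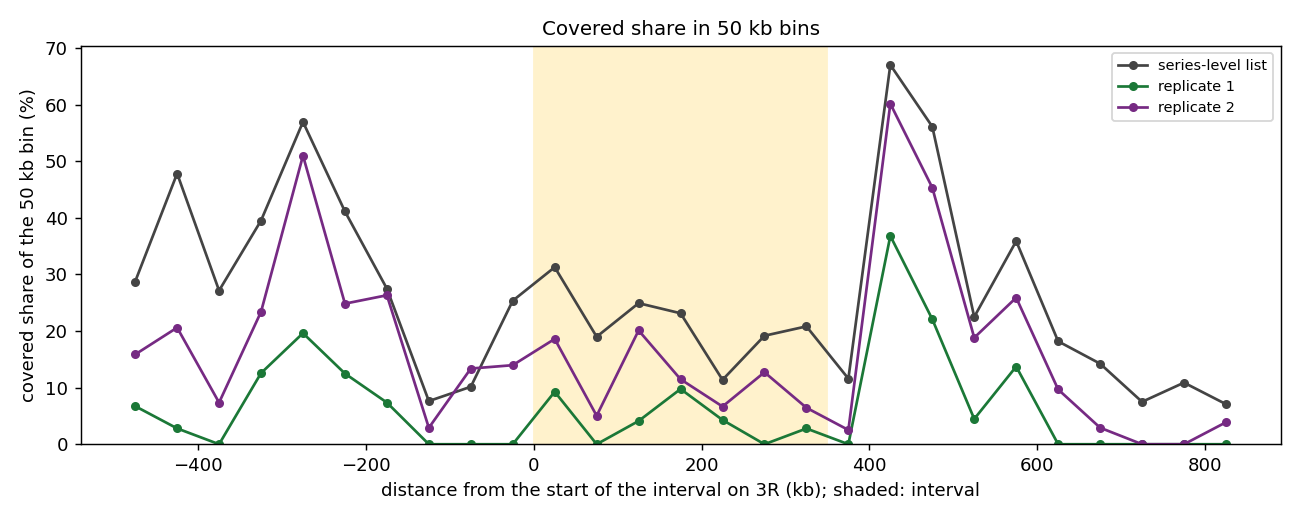
Covered share of consecutive 50 kb bins (y axis, percent) against distance from the start of the interval (x axis, kb), with 1 line for each list and the interval shaded. The interval's bins stay at or below 31.3% in the series-level list, while single flank bins reach 67.0%.

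Among stretches of the same length on 3R, the complex ranked in the lower part. Windows as long as the interval were started every 10 kb along the arm, and the 2686 that did not overlap the interval were kept. They overlap each other, so their number is not a number of independent stretches. The median window was covered to 32.1% in the series-level list, and 8.18% and 23.1% in replicates 1 and 2. In the series-level list 323 windows, or 12.0%, had a lower share than the complex. In replicate 1 it was 14.2% of windows and in replicate 2 it was 6.40%, a mean of 10.3% ± 5.53 (SD, n = 2). The lowest windows were covered to 7.61% in the series-level list, and 0 and 2.64% in replicates 1 and 2, so the complex was not at the bottom of the arm. Beside windows of all 5 large arms, 22.7% had a lower share than the complex in the series-level list, and 16.4% as the mean over replicates.

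By number of regions, the complex ranked nearer the middle of the windows in the series-level list. Its 45 series-level regions compare with a median of 50 per window, and 36.0% of windows held fewer. Replicate 1 had 7 regions against a median of 12, with 11.4% of windows holding fewer, and replicate 2 had 19 against 33, with 7.78% holding fewer. Per 100 kb the interval held 12.9 regions in the series-level list, against 13.9 over the arm. The regions of the complex were narrower than others on 3R, with a median of 1370 bp against 1745.5 bp in the series-level list. The medians were 1726 against 2016.5 bp in replicate 2 and 2054 against 2089 bp in replicate 1. Both flanks together had medians of 1477 bp in the series-level list, and 2015 and 1974 bp in replicates 1 and 2. Beside the flanks, the complex was thus narrower in the series-level list and replicate 2 and wider in replicate 1. No region of the complex exceeded 10 kb. On the whole arm 36 of 3879 series-level regions, 1 of 1100 regions of replicate 1 and 17 of 2581 of replicate 2 did. The flanks had none in any list either, so this does not set the complex apart.

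**Figure D3:**
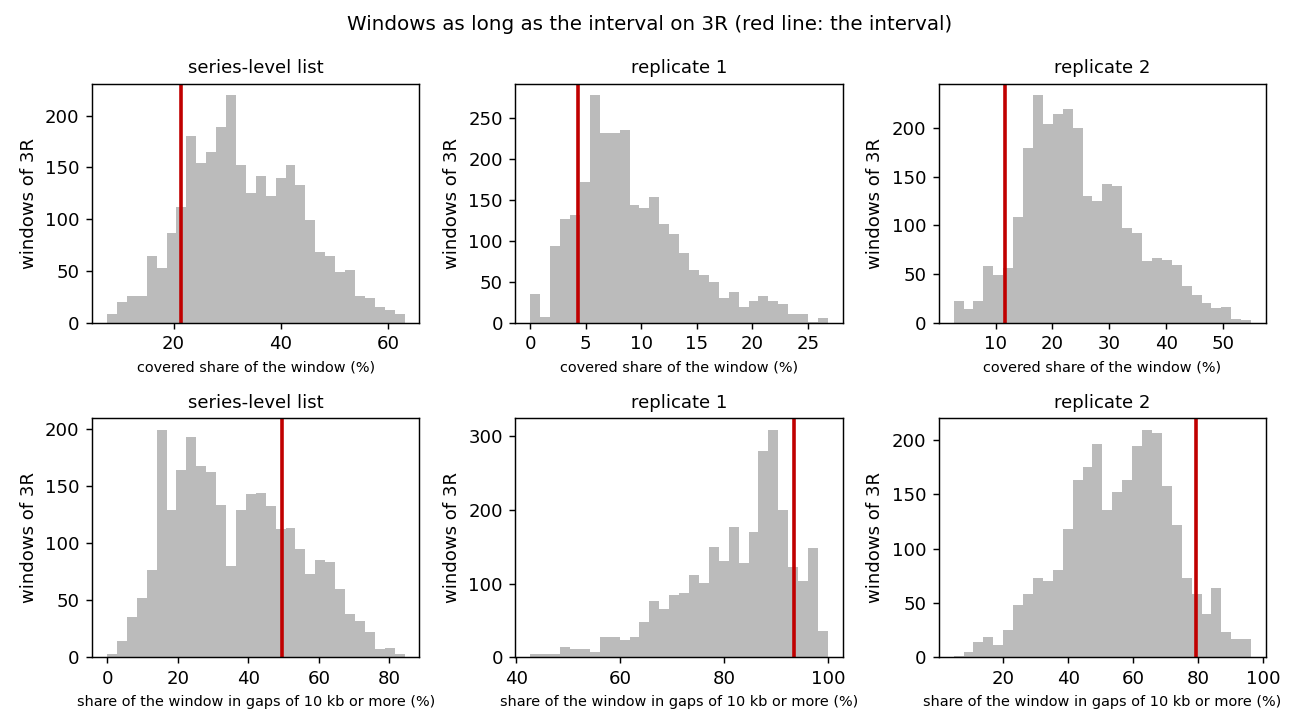
Histograms of the 2686 windows of 3R as long as the interval, for the covered share (upper row, percent) and the share in gaps of 10 kb or more (lower row, percent) in each list, with the number of windows on the y axis. The red line is the interval, which lies left of the median window in each upper panel and right of it in each lower panel.

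Long stretches without a called region made up much of the complex. In the series-level list, 11 gaps of 10 kb or more took 49.6% of the interval, against 34.3% of the median window. In replicate 1, 5 such gaps took 93.5%, against 85.0%, and in replicate 2, 11 took 79.3%, against 56.6%. Of all windows, 24.3%, 12.4% and 7.48% had a larger share in long gaps than the complex, in the same order of lists. Both flanks together had 40.3%, 87.3% and 69.1% of their bases in such gaps. By side, the left flank had 31.45%, 90.3% and 65.0%, and the right flank 49.1%, 84.3% and 73.2%. In the series-level list the complex was thus close to the right flank, and the contrast lay with the left flank.

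The longest single gap was no longer than is usual for the arm in the series-level list and in replicate 2. It measured 26.8 kb in the series-level list, from 2540156 to 2566965, where the median window had a longest gap of 32.0 kb. In replicate 2 it measured 46.1 kb, from 2642929 to 2688994, against a median of 50.2 kb, and it rose to 187.1 kb when replicate 2 was limited to 4619 regions. In replicate 1 it measured 134.6 kb, from 2691367 to 2825930, against a median of 116.7 kb. That stretch of replicate 1 held 17 regions of the series-level list and 7 of replicate 2. The complex thus had many gaps of medium length in the 2 denser lists, not 1 very long one.

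A set of 9 stretches of 10 kb or more was free of regions in all 3 lists at once. Together they spanned 149.5 kb, or 42.7% of the interval. The longest was the same 26.8 kb stretch from 2540156 to 2566965. Next came 2692015 to 2714311, of 22.3 kb, and 2600435 to 2617732, of 17.3 kb. The others were from 12.0 to 15.7 kb long. All lists together left 77.2% of the interval without a region. The series-level list overlapped 98.9% and 96.8% of the regions of replicates 1 and 2 on 3R, so the 9 stretches largely restate its gaps. Their share was not set beside that of windows or flanks. The lists hold no read counts, so absence from a list does not show that the mark was absent.

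7 places in the complex were called in both replicates. Each region of replicate 1 overlapped a single region of replicate 2 and a single series-level region. On 3R as a whole, 90.5% of replicate 1 regions overlapped replicate 2, so 7 of 7 (95% Wilson interval 64.6 to 100%) lies near the background. In replicate 2, 7 of its 19 regions had a partner in replicate 1, or 36.8% (19.1 to 59.0%), beside 35.9% on the arm. With replicate 2 limited to its 4619 highest-scoring regions, 83.3% of the 6 that remained in the complex had a partner. Both intervals treat neighbouring regions as independent and are thus narrower than they should be. The replicates shared 14.2 kb of the interval, equal to 93.8% of what replicate 1 covered there and 34.9% of what replicate 2 covered. Their Jaccard index, the shared bases divided by those in either list, was 0.342, beside 0.311 on 3R.

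The strongest of the 7 by score lay near the low-coordinate edge of the interval and around its middle. The region 2481600 to 2485051 had the highest series-level score of the complex, 1.13, and was 3452 bp wide. Its counterparts scored 1.00 in replicate 1 and 1.25 in replicate 2, at the 84.5 and 95.7 percentiles of their own lists. The region 2639425 to 2642894, of 3470 bp, came next with 0.963. It scored 1.10 in replicate 1 and 1.17 in replicate 2, at the 90.1 and 93.9 percentiles of those lists. These were the only series-level regions of the complex in the top 10% of their list, that is 2 of 45, where the arm had 8.28%. Replicate 1 had 1 of 7 such regions in the complex, beside 8.27% on the arm, and replicate 2 had 2 of 19, beside 8.76%.

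The widest region of the complex was 2587251 to 2593066, of 5816 bp, with a series-level score of 0.624. Replicate 2 called 6383 bp there and replicate 1 only 2054 bp, inside the region of replicate 2. Its score stood at the 72.3 percentile of replicate 2 and the 40.1 percentile of replicate 1. The region 2634699 to 2637508, of 2810 bp, lay 1.92 kb before the strong region at 2639425. It scored 0.625 in the series-level list, and 0.560 and 0.856 in replicates 1 and 2. The pair formed the only place where 2 regions called in both replicates lay within 5 kb of each other.

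The other 3 shared places were weaker in at least 1 list. The region 2502481 to 2504782, of 2302 bp, scored 0.569 in the series-level list, and 0.565 and 0.819 in replicates 1 and 2. The region 2689019 to 2692014, of 2996 bp, scored 0.516 in the series-level list, and 0.816 and 0.624 in replicates 1 and 2, and its replicate regions shared 72.4% of the bases of replicate 1. The region 2825612 to 2827388, of 1777 bp, near the high-coordinate edge, was called in both replicates although it scored near the bottom of every list. Its scores were 0.198 in the series-level list, and 0.444 and 0.288 in replicates 1 and 2, at the 0.371, 2.01 and 0.603 percentiles.

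Of the 14 edges of the shared regions, 9 differed between replicates by at most 500 bp, or 64.3%, and the median difference was 272.5 bp. For the 945 regions of replicate 1 with a single partner in the rest of 3R, 53.8% of edges differed by at most 500 bp, and the median was 430.0 bp. The largest, 2442 bp, was at the start of the widest region. In 6 of the 7 places the region of replicate 2 was wider. Scores of different lists have no stated common scale and are compared only by their rank within a list.

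Most series-level regions of the complex had no counterpart in either replicate. Of the 45, 7 overlapped both replicates, or 15.6%, beside 22.6% on 3R. Another 10 overlapped replicate 2 only, or 22.2%, beside 40.2%. None overlapped replicate 1 only, where 3R had 2.35%. The remaining 28, or 62.2%, overlapped neither, beside 34.9% on 3R. They held 47.2% of the series-level bases in these regions, and in the rest of 3R such regions held 19.3%.

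The regions found in neither replicate were narrow, as they were in the rest of 3R. Their median width was 1154 bp, with a range of 1001 to 2496 bp, and their median score was 0.410. Those found in replicate 2 only had a median of 1673.5 bp and a median score of 0.410. Those found in both had medians of 2996 bp and 0.624. In the rest of 3R the median widths were 1211.5, 1827 and 3795 bp in the same order, so this order is not particular to the complex. The narrowest region that the replicate lists held in the complex was 1391 bp in replicate 1 and 1329 bp in replicate 2. On the whole arm it was 1304 and 1301 bp in replicates 1 and 2, and 1001 bp in the series-level list. The median of 1154 bp thus lies under the narrowest region of either replicate on 3R. Since a wide region is more easily overlapped by 1 bp, width and agreement were not separated here.

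**Figure D4:**
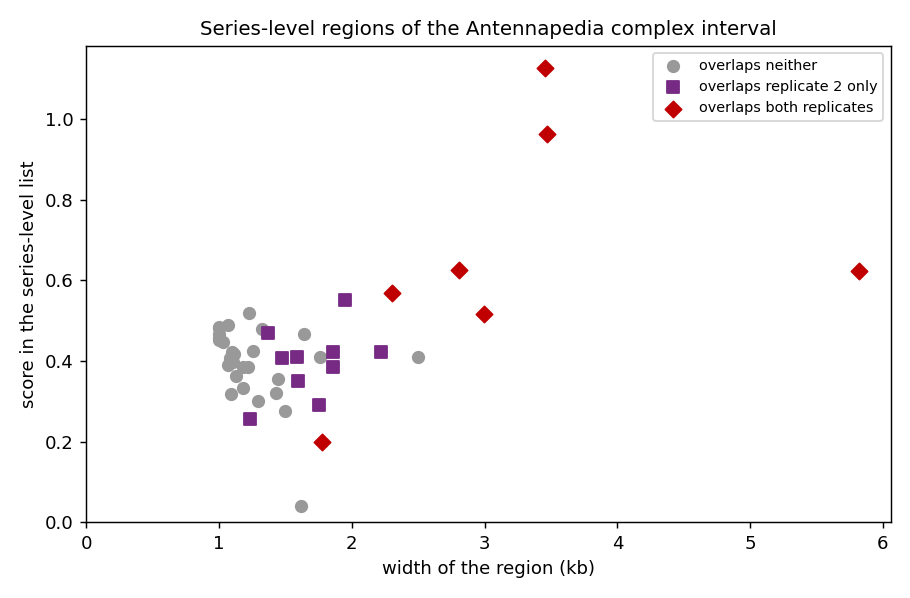
Score in the series-level list (y axis) against width in kb (x axis) for the 45 series-level regions of the complex, by whether they overlapped both replicates, replicate 2 only or neither. The 7 regions in both replicates have a median width of 2996 bp and include the 2 highest scores, 1.13 and 0.963, and the region at 0.198.

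None of the regions without a counterpart in the replicates reached the upper quartile of other 3R regions by score, 0.531. The widest of the 28 was 2743914 to 2746409, of 2496 bp, with a score of 0.410. The highest-scoring was 2655700 to 2656923, of 1224 bp, with 0.520, at the 66.0 percentile of the list. It was followed by 2529658 to 2530722, with 0.489, and 2776569 to 2777569, with 0.484. Of the 10 regions in replicate 2 only, the highest score was 0.552, at 2527076 to 2529024, and the widest was 2578499 to 2580721, of 2223 bp. Next in width were 2527076 to 2529024, of 1949 bp, and 2598574 to 2600434, of 1861 bp. In the other direction, 2 of the 19 regions of replicate 2, at 2752157 to 2753502 and 2766450 to 2768021, did not overlap the series-level list, which on 3R overlapped 96.8% of replicate 2 regions. All 7 regions of replicate 1 overlapped it, beside 98.9% on the arm.

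Scores in the complex lay somewhat below those of other 3R regions. The median was 0.418 against 0.460 in the series-level list, and 0.691 against 0.714 and 0.600 against 0.658 in replicates 1 and 2. The left flank had medians of 0.411, 0.667 and 0.616 in the same order of lists. The right flank had 0.447, 0.743 and 0.673. The complex thus lay between its flanks in the series-level list and replicate 1, and below both in replicate 2. Of the 45 series-level regions, 12 reached the median score of their whole list, where 44.1% of 3R regions did. In replicate 1 it was 3 of 7, beside 45.5%, and in replicate 2 it was 6 of 19, beside 46% on the arm. The difference in medians was -0.0233 in replicate 1 and -0.0579 in replicate 2, and the middle 50% of other 3R regions spanned 0.622 to 0.869 and 0.560 to 0.780, so both were small beside the spread of regions. When low-scoring regions under the list median were left out, the mean difference over replicates turned to 0.0758, from -0.0406, with 3 and 6 regions left in the complex.

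Along the complex, values are given for the 200 kb from 2480000 and the 150 kb from 2680000, a division chosen after the values were seen and not set beside such a division of other windows. The lower-coordinate part was covered to 24.6% in the series-level list, and 5.79% and 13.8% in replicates 1 and 2. The higher-coordinate part was covered to 17.1%, 2.36% and 8.61%. It held 2 of the 7 regions of replicate 1, and no series-level region in it was wider than 2996 bp. Scores in replicate 2 had a median of 0.717 in the lower part and 0.441 in the higher part, while those of series-level regions had medians of 0.421 and 0.414. The densest bin of the interval in the series-level list was the first, 2480000 to 2529999, at 31.3%. The sparsest bin differed between lists. It was 2680000 to 2729999, at 11.4%, in the series-level list and 2530000 to 2579999, at 5.03%, in replicate 2, while replicate 1 had no region in 2530000 to 2579999 or 2730000 to 2779999.

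**Figure D5:**
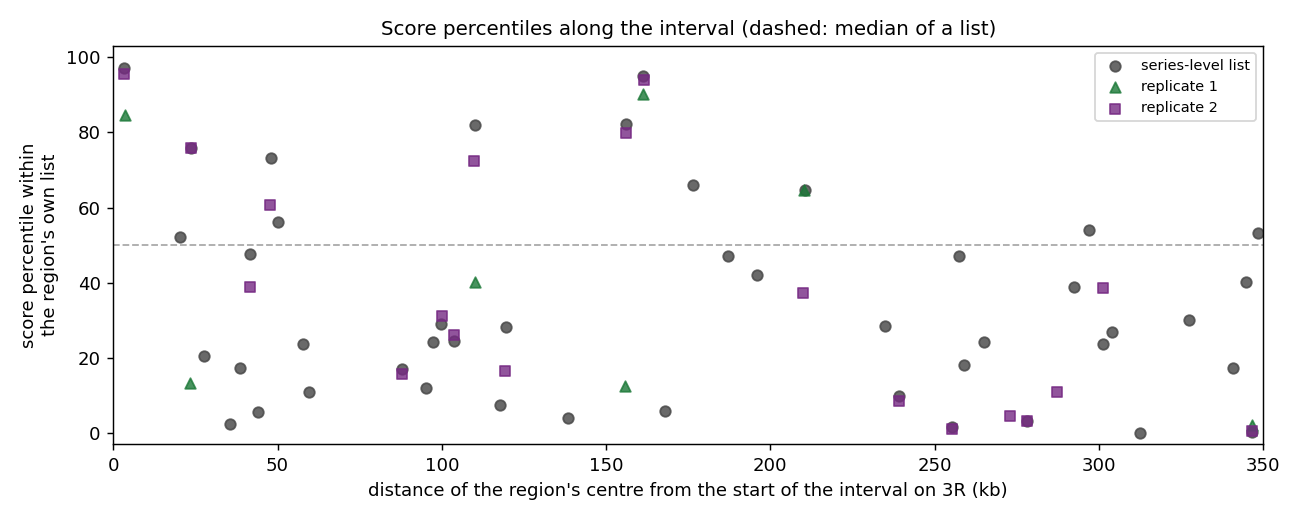
Percentile of each region's score within its own list (y axis) against the distance of its centre from the start of the interval in kb (x axis), for the 3 lists. The regions of replicate 2 beyond 200 kb all lie under the dashed line at the median of the list, and its highest percentile, 95.7, lies near the start.

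Very low scores were frequent among the regions of the complex. This was noticed in the data and is a description only. With the lowest 5% of scores taken in each whole list, the complex held 6 of 45 such regions in the series-level list, or 13.3%, where 3R had 4.95%. Replicate 2 had 4 of 19, or 21.1%, beside 4.65%, and replicate 1 had 1 of 7, beside 5.55%. In the 2686 windows of the same length on 3R, as many or more such regions occurred in 3.61% of windows for the series-level list, 8.90% for replicate 2 and 50.6% for replicate 1.

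They lay mostly towards the higher coordinates. All 4 of replicate 2, the 1 of replicate 1 and 4 of the 6 series-level regions started at or beyond 2680000. That division was chosen after the values were seen. The same part held 8 of all 19 regions of replicate 2, 2 of 7 of replicate 1 and 18 of 45 series-level regions. Several low-scoring places recur in more than 1 list, so the lists are not separate evidence for this position. The region 2791584 to 2793197, of 1614 bp, scored 0.0411, at the 0.0130 percentile of the series-level list, and was in neither replicate list. The regions 2734818 to 2736048 and 2757300 to 2759053 scored 0.256 and 0.290 and were also called in replicate 2, where they stood at the 1.00 and 3.17 percentiles. Together with the shared region at 2825612, 3 of the 4 low-scoring series-level regions of that part were thus called in replicate 2 as well. Of all series-level regions, 62.8% on 3R and 37.8% in the complex overlapped replicate 2, so 3 of 4 does not set these regions apart. How the authors' program weighed score against width when it called a region was not tested.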

How the data were processed

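Chromatin of Oregon-R embryos was fixed in formaldehyde and precipitated with the antibody, per the labels' protocols. The aligner was Bowtie 0.12.7, according to the submitters' processing notes, and positions refer to FlyBase r5, per the file headers. Each deposited list gives positions and 1 score per enriched region. The calling program, its threshold, the scale of the authors' score and the way the series-level list joins the replicates were not given in the sources used here. Without read counts in the lists, library depth is unknown and counting error cannot be stated.

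Covered bases, gaps, overlaps of at least 1 bp and windows were computed with Python 3.11.15, NumPy 2.4.6 and pandas 2.3.3, with figures from matplotlib 3.10.9, and the functions were tested on simulated data. Coordinates are 1-based and inclusive. Regions that cross an edge were counted whole and their bases clipped. Score percentiles refer to the whole list. Named regions are the 10 widest and 10 highest-scoring of the series-level list in the interval and those in both replicates, with further regions chosen after their values were seen. Named gaps are the longest of each list and the longest stretches free of regions in all lists. Other gaps of 10 kb or more are given by count or range. The interval and its members were chosen with earlier results of these data known. Alternatives were a score threshold at the median, merging of regions 500 bp or less apart, other flanks, edges, windows and gap lengths, an overlap of 50% and each replicate alone. Limiting replicate 2 to as many regions as replicate 1, and flanks of 1 side alone, were added after the data were seen. A planned covered share per gene was not run, because the gene table is on another build.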

Additional observations from a re-analysis of the deposited data

How the results depend on the processing

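Of 89 recomputed values, 60 stayed close to the main value, 25 moved further and 4 changed sign. Close means within 1 SD of the replicates for covered shares, ranks, gaps, widths and scores. It means within 1.5 times for numbers of regions and the Jaccard index, and within the 95% Wilson interval for shares of regions with a partner. With 2 replicates, the value with 1 left out always lies within their SD, so except for numbers of regions it was close by construction. That SD also reflects the unequal length of the replicate lists, and a longest gap of 84.6 kb against 26.8 kb counted as close. The number of close values is thus not a measure of stability. Series-level values as deposited, then at or above the median score, were 21.4 and 8.12% covered, 12.0 and 5.36% of windows lower, 12.9 and 3.43 regions per 100 kb, 49.6 and 90.0% in long gaps, a longest gap of 26.8 and 84.6 kb, a median width of 1370 and 2125.5 bp, and a score difference of -0.0424 and -0.0130. Replicate means were 3.71 and 1.29 regions per 100 kb, a longest gap of 90.3 and 170.9 kb and a median width of 1890 and 2930.5 bp. The mean score difference turned from -0.0406 to 0.0758 under that threshold, which acts on the score itself and leaves 3 and 6 regions. Windows of all large arms put 22.7% of windows below the complex in the series-level list and 16.4% as the replicate mean, against 10.3% on 3R, so its low rank is less marked beyond 3R. Flanks of 100 and 200 kb gave mean differences of -7.91 and -7.94 with both sides pooled. By side, a comparison added after the data were seen, the left 100 and 200 kb gave 3.63 and 3.73 in the series-level list and 1.11 and -0.0438 as replicate means, and the right -17.9 for both lengths in the series-level list and -16.9 and -15.8 as means. In the series-level list, the lower share at these lengths thus rests on the right side. Gaps of 5 kb or more took 63.8% of the series-level interval, and those of 20 kb or more 14.0%, with 71.4% as the replicate mean. Limiting replicate 2 to 4619 regions left 6 in the complex, of which 83.3% overlapped replicate 1, while 71.4% of replicate 1 regions overlapped replicate 2. The limit gave 1.86 regions per 100 kb and a longest gap of 160.8 kb as means. With each replicate left out in turn, the mean over replicates ranged from 4.32 to 11.6% covered, -2.62 to -6.86 percentage points against the flanks, 6.40 to 14.2% of windows lower, 2.00 to 5.43 regions per 100 kb, 46.1 to 134.6 kb for the longest gap, 79.3 to 93.5% in long gaps, 1726 to 2054 bp for the median width and -0.0579 to -0.0233 for the score difference. Other causes of these shifts were not tested. No paired analysis was possible because each result is a value of a region list with no fitted test. The unknown depth limits all statements on gaps.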
